A study of Mus musculus with 16 samples.

Results

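Zic1, Zic4 and Vax1, 3 genes for transcription factors of the early embryonic head, were followed across the libraries of a survey of mouse craniofacial development by RNA sequencing. They were taken as the rows with these gene symbols (Zic1 is ENSMUSG00000032368, Zic4 is ENSMUSG00000036972 and Vax1 is ENSMUSG00000006270), each on 1 row, and make up 3 of the 15876 genes listed in every library. The embryos were of the outbred CD1 strain, with no mutation or treatment named. Small regions were dissected at 3 stages, written E8.5 to E10.5 for days of embryonic development, and each region and stage has 1 library of total RNA, 16 in all. Neural tissue comprises the caudal brain, the non-floor plate neural epithelium and the floor plate at E8.5 and the lateral prominence, central and dorsal control neural epithelium at E10.5. Mesenchyme comprises the mesoderm at E8.5, the cranial mesenchyme, mandibular arch and maxillary arch at E9.5, and the lateral and medial nasal prominences and both arches at E10.5. The epidermal ectoderm at E9.5 and the olfactory pit at E10.5 complete the set. The labels do not say how many embryos went into a library, and an arch or prominence is a mixture of mesenchyme with whatever epithelium, vessels and blood were dissected with it.

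Zic genes encode zinc finger proteins related to the Gli factors that relay hedgehog signals. They act in dorsal and midline parts of the neural tube, in the neural crest and in somites, where they regulate progenitor growth and patterning. Zic1 and Zic4 lie next to each other, and deletions that remove both of the human genes have been linked to Dandy-Walker malformation of the cerebellum. Vax1 encodes a homeodomain protein of the ventral forebrain and optic stalk, and mice without it have defects of the optic nerve, the ventral midline of the forebrain and the palate.

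Zic1 and Zic4 stand back to back on chromosome 9, with 3204 bases between the starts that the RefSeq table of GRCm38.p6 gives them, although transcripts with other starts make the annotated genes overlap. Vax1 on chromosome 19 also stands back to back with a neighbour, the long noncoding RNA 4930442E04Rik, with 1384 bases between the starts and no overlap. The values below show both pairs high in the same library, so the 250 bases before each RefSeq start are printed, 5′ to 3′ on the strand of the gene. Capitals mark CCAAT, the CCAAT box, in either orientation (ATTGG on the strand shown). The coordinates are those of GRCm38.p6, while the submitters' processing notes name mm9 for the libraries.
Zic1, chr9:91365769-91366018, minus strand: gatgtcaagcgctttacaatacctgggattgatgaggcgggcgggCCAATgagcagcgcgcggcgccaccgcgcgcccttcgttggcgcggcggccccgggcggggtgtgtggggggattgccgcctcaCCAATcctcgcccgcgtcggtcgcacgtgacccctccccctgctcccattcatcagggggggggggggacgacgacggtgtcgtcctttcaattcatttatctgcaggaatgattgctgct
Zic4, chr9:91368722-91368971, plus strand: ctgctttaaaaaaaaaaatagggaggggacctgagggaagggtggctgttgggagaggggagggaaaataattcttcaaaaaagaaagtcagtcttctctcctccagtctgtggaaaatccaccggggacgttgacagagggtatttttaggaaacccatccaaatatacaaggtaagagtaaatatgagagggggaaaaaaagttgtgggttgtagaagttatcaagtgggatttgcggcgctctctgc
Vax1, chr19:59170398-59170647, minus strand: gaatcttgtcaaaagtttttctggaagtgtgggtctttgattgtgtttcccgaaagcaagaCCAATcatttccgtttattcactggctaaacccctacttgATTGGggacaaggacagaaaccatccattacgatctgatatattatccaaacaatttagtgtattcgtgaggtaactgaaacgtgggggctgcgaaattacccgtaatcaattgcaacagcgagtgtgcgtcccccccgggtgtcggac
4930442E04Rik, chr19:59171531-59171780, plus strand: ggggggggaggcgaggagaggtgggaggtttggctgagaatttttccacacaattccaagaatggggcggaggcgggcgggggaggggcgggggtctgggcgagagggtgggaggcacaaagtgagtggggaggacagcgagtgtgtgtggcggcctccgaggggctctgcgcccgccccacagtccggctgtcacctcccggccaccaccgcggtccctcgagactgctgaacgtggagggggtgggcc

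The windows of Zic1 and Vax1 hold 2 CCAAT matches each, and those of Zic4 and 4930442E04Rik hold none. At least 1 match on either strand occurs in 33.8% of the 32851 windows of the same length in the RefSeq table, so this is a common motif. None of the 4 windows holds TATAAA (12.4% of all windows), the GLI consensus GACCACCCA (0.225%) or the homeodomain site TAATTA (4.84%) on either strand. CG dinucleotides number 27 for Zic1, more than in 91.4% of windows, against 4 for Zic4, 11 for Vax1 and 17 for 4930442E04Rik, and the median window has 6. The Zic1 window is thus CG-rich and the Zic4 window is not, although the genes are neighbours. Other annotated transcripts of Zic4 start elsewhere, and their upstream sequence was not examined.

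Values are given as levels. The deposited values are ratios in which every gene has a median of 1 over the 16 libraries, and low values had been raised to a floor. A level is the ratio to the lowest value that the gene takes, so a level of 1 is the floor and a level of 10 is 10 times it. Levels compare libraries for 1 gene and do not compare genes. The labels state more than 40000000 reads per library but no totals, so the depth of each library is unknown and no counting interval can be given. In bulk tissue, fewer cells of a type and less RNA per cell cannot be told apart. The libraries also differ in scale. The median gene never at a shared floor lay between -0.82 and -0.07 on the log2 scale in 6 of the 8 E10.5 libraries and between 0.0 and 0.40 in the other libraries. In those 6, 63.8% to 81.5% of the genes with a floor were at it, against 50.6% to 59.1% elsewhere. Folds "relative to the median gene" have this shift removed.

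The labels of 2 libraries call for care. The library labelled E10.5 medial nasal prominence had all 12 pan-neural progenitor markers above the floor, with a summed level of 264, against 13.6 to 16.4 in the lateral nasal prominence and arches of the same stage and 114 to 178 in the E10.5 neural libraries. Its mesenchyme markers were at the floor for 16 of 18 genes, among them Twist1 and Prrx1, with a summed level of 36.4, against 152 to 196 in those 3 facial libraries. Its level of Nes, the progenitor filament nestin, was 43.2. Endothelial markers, with 5 of 10 above the floor and a summed level of 18.4, lay nearer the 21.4 to 22.5 of those facial libraries than the E10.5 neural ones, which did not exceed 13.9, and the erythroid sum of 171 lay between the ranges of both classes. It is named throughout as the library labelled medial nasal prominence, and each comparison of the 3 genes is given with and without it. The library labelled dorsal control had levels of 101.2 for Nkx2-1, a factor of the ventral forebrain and hypothalamus, 12.4 for Shh, the ventral midline signal, and 66.1 for Six3, a factor of the anterior forebrain. These genes were above the floor in the library labelled central too, at 3.91 for Nkx2-1, 7.04 for Shh and 6.56 for Six3. The dorsal and cortical genes Emx2, Wnt8b and Pax6 were all at the floor in the library labelled dorsal control. That labelled central had 14.4 for Emx2, 11.1 for Wnt8b and 66.6 for Pax6. Other genes went the other way. Wnt1, a signal of the dorsal midline, had 4.53 in the library labelled dorsal control and was at the floor in that labelled central. Gli1, a hedgehog target, was at the floor in the library labelled dorsal control and had 3.29 in that labelled central. Ptch1, also a hedgehog target, differed from Gli1, with 27.4 in the library labelled dorsal control and 11.9 in that labelled central. The ventral genes Foxa2 and Nkx2-2 were above the floor only in the E8.5 floor plate, at 9.18 and 4.04, so they do not separate these libraries. Of 15 measured genes of the dorsal neural tube, 2 were above the floor in the library labelled dorsal control and 7 in that labelled central. The column headers of these libraries carry each other's abbreviation: the one labelled central is headed DCNE and the one labelled dorsal control is headed CNE. The labels are followed here, and both libraries are E10.5 neural epithelium under either name.

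**Figure D1:**
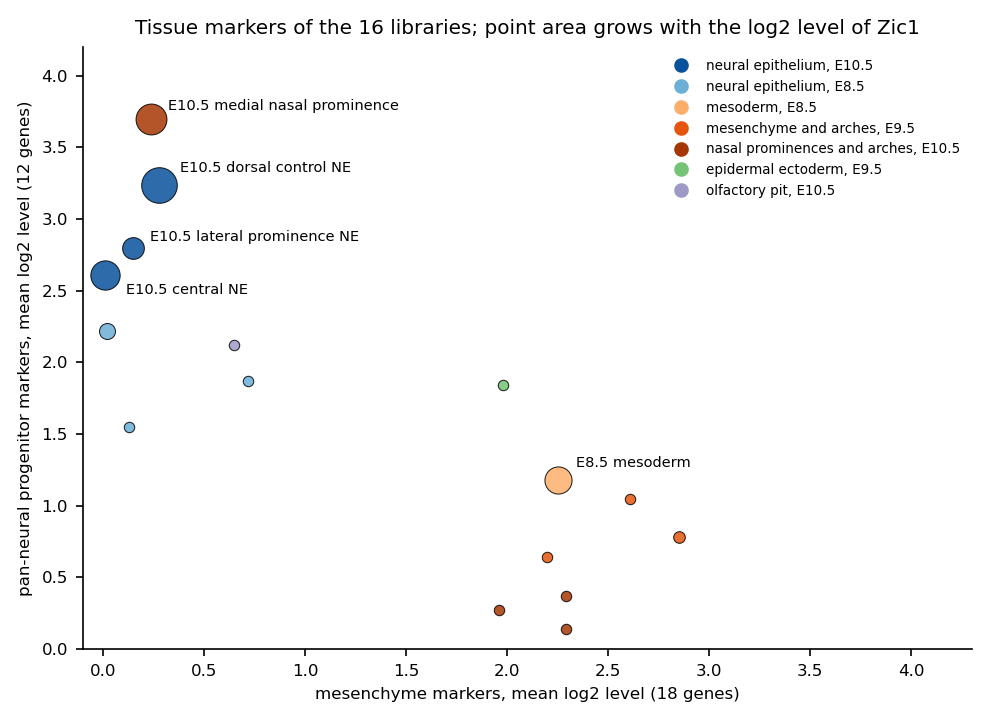
Mean log2 level of 12 pan-neural progenitor markers (vertical axis) against that of 18 mesenchyme markers (horizontal axis), 1 point per library, coloured by tissue class, with a point area that grows with the log2 level of Zic1. The library labelled medial nasal prominence lies at 3.7 and 0.24, among the neural libraries, and the E8.5 mesoderm, with a Zic1 level of 9.26, lies at 1.18 and 2.25, among the mesenchyme.

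Zic1 was highest in E10.5 neural epithelium and at its floor in E10.5 arches. The library labelled dorsal control had a level of 61.3, the library labelled central 14.3 and the lateral prominence neural epithelium 3.65, against 1 in the lateral nasal prominence, mandibular arch and maxillary arch, with 20.0 in the library labelled medial nasal prominence. All 3 neural libraries lay above those 3 facial libraries, and the library labelled medial nasal prominence lay inside the neural range. At E8.5 the caudal brain neural epithelium had 1.69 and the floor plate and non-floor plate were at the floor, against 9.26 in the mesoderm. The E8.5 order was thus the other way round, with every neural library below the mesoderm. At E9.5 the cranial mesenchyme had 1.10, and both arches and the epidermal ectoderm were at the floor, as was the olfactory pit at E10.5. In all, 7 libraries were above the floor, 4 of them neural, out of 6 neural and 8 mesenchyme libraries.

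Zic4 was above its floor in 3 libraries. Its level was 19.7 in the library labelled dorsal control and 3.03 in the library labelled central, with the lateral prominence neural epithelium at the floor, against 4.36 in the library labelled medial nasal prominence and the floor in the other 3 facial libraries. The remaining libraries, all of E8.5 and E9.5 and the olfactory pit, were at the floor. These 3 libraries are also the 3 with the highest Zic1, and the E8.5 mesoderm, the fourth for Zic1, had no Zic4 above the floor. The genes overlap on opposite strands by 3398 bases in the GENCODE vM21 annotation of GRCm38, and by 138 bases in RefSeq. Whether reads were counted by strand is not given in the sources used here, so reads in the overlap cannot be assigned to Zic1 or Zic4.

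Vax1 was above the floor in 6 libraries, and its highest level was again in the library labelled dorsal control. That library had 12.4, the lateral prominence neural epithelium 1.46 and the library labelled central was at the floor, against 3.75 in the library labelled medial nasal prominence and the floor in the other 3 facial libraries. The E10.5 neural and facial libraries therefore overlapped for Vax1, with 1 neural library at the floor. At E8.5 the non-floor plate neural epithelium had 1.36, and the caudal brain, the floor plate and the mesoderm were at the floor. Unlike both Zic genes, Vax1 was also above the floor in surface tissues, though by less than the fitted SD between regions given below. Its level was 1.87 in the epidermal ectoderm and 1.67 in the olfactory pit. Those 2 libraries had all 10 surface epithelium markers above the floor, with summed levels of 260 and 317, and 80.0 and 84.3 for the pan-neural markers.

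**Figure D2:**
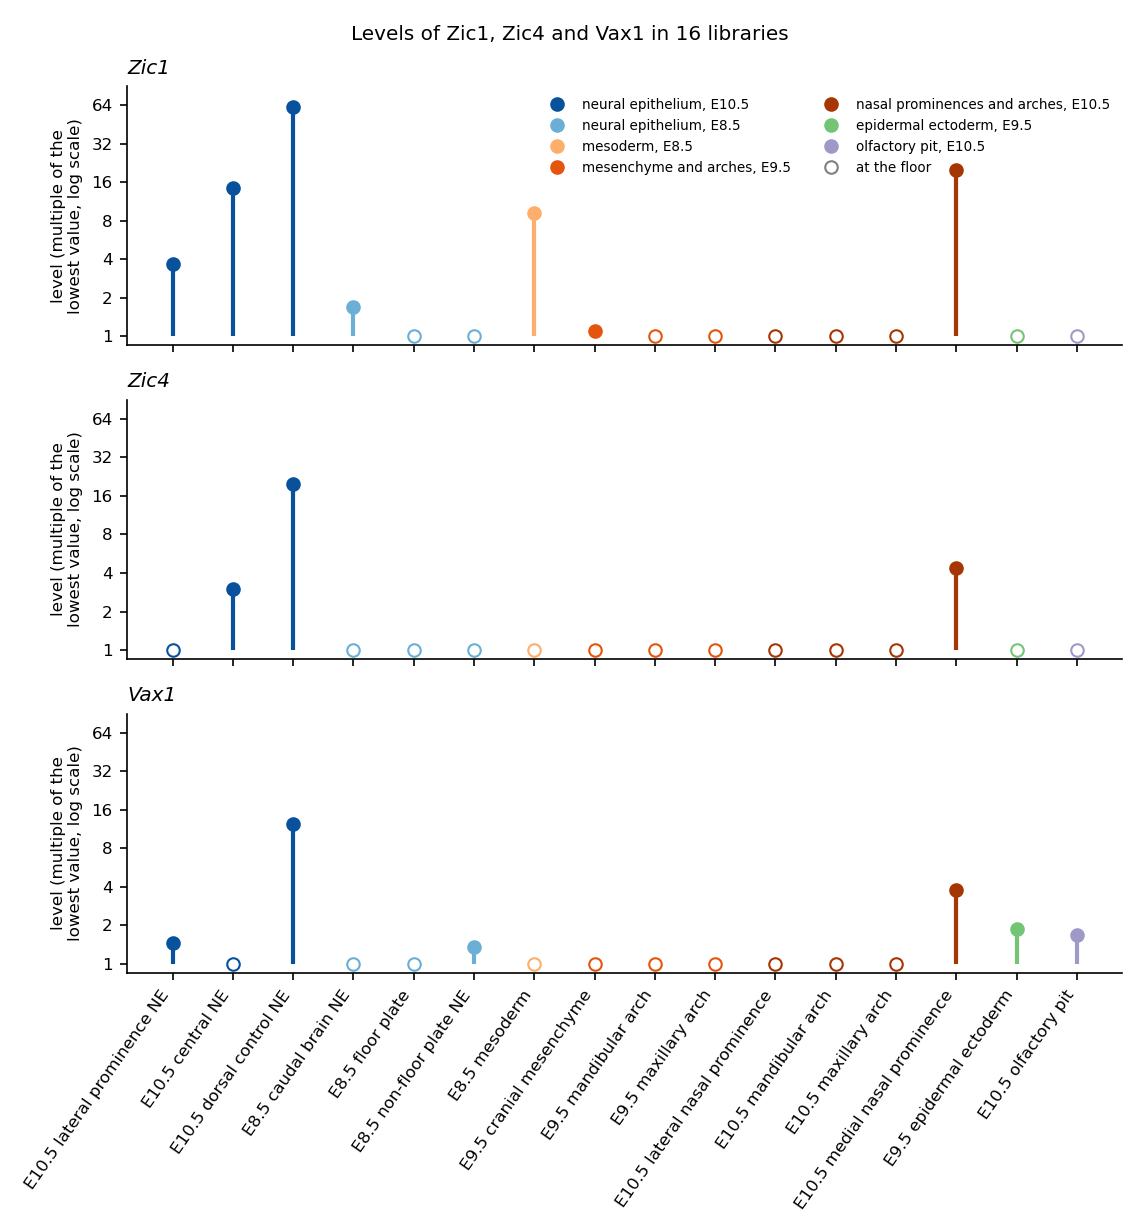
Level of Zic1, Zic4 and Vax1 (vertical axes, multiples of the lowest value of each gene, log scale) in each of the 16 libraries, coloured by tissue class, with open circles for libraries at the floor. The library labelled dorsal control is the highest in all 3 panels, at 61.3, 19.7 and 12.4, and the library labelled medial nasal prominence is the second, at 20.0, 4.36 and 3.75.

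Since each region has 1 library, the nearest error for the order of the levels is the fitted SD between regions of a class, 1.59 for Zic1, 1.19 for Zic4 and 1.08 for Vax1 on the log2 scale. A step is a difference between libraries, which varies more than a single library does. The SD is also pooled over classes, some of them tied or nearly tied at the floor. A step larger than the SD is therefore not shown to exceed the spread between regions. The library labelled dorsal control stood above the next library by 1.62 for Zic1, 2.18 for Zic4 and 1.72 for Vax1 on the log2 scale, each more than the SD of its gene. As folds these were 3.06, 4.53 and 3.31 as deposited and 3.90, 5.77 and 4.21 relative to the median gene. The next steps in the order of Zic1 were 0.48, 0.63, 1.34 and 1.11, through the libraries labelled medial nasal prominence and central, the E8.5 mesoderm and the lateral prominence neural epithelium to the caudal brain, all within that SD. The SD of Zic1 was 1.04 without the library labelled medial nasal prominence, and the steps of 1.34 below the E8.5 mesoderm and 1.11 below the lateral prominence were beyond it. For Zic4 the step between the libraries labelled medial nasal prominence and central was 0.52, within the SD, and the step of the library labelled central above the floor was 1.60, beyond it. For Vax1 every step below the highest library was 1.0 or less, against an SD of 1.08, or 0.99 without the library labelled medial nasal prominence.

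The libraries of E10.5 neural epithelium differed widely among themselves. Zic1 was 16.8-fold higher in the library labelled dorsal control than in the lateral prominence and 4.27-fold higher than in the library labelled central. Zic4 was 6.51-fold higher than in the library labelled central and at least 19.7-fold higher than in the lateral prominence. Vax1 was 8.48-fold higher than in the lateral prominence and at least 12.4-fold higher than in the library labelled central. These single-library folds have no replicate check. The library labelled central had Zic1 and Zic4 above the floor and Vax1 at it, and the lateral prominence had Zic1 and Vax1 above the floor and Zic4 at it, where the Vax1 level of 1.46 was nearer the floor than the SD between regions.

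The contrast of E10.5 neural with E10.5 facial tissue asks whether the genes separate neural epithelium from the facial prominences and arches at this stage. Mean levels were 26.4 ± 30.6 in neural and 5.75 ± 9.5 in facial libraries for Zic1, 7.92 ± 10.3 and 1.84 ± 1.68 for Zic4, and 4.95 ± 6.45 and 1.69 ± 1.37 for Vax1 (SD over 3 neural and 4 facial regions). A linear model across the 12851 genes that exceeded the floor in 3 or more libraries (limma, with Benjamini-Hochberg adjustment) called a gene at an adjusted p under 0.05 and at least a 2-fold difference. None of the 3 genes was called, and the model called 0 of 12851 genes, 0.0% in each direction, with 1332 genes at an unadjusted p under 0.05. The log2 difference was 2.80 (SE 1.46, limma adjusted p = 0.539) for Zic1, 1.44 (SE 0.81, adjusted p = 0.569) for Zic4 and 0.92 (SE 0.73, adjusted p = 0.736) for Vax1. Since these regions are not replicates of 1 tissue, the p-values set a difference against the spread between regions within classes, pooled over all 7 classes of the fit.

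Without the library labelled medial nasal prominence, Zic1 was called higher in E10.5 neural tissue. That library was set apart by its neural markers, and it was also the only facial library with Zic1 above the floor. Leaving it out placed the whole facial class at the floor, so the call is a description of the remaining libraries and not independent support. The 3 remaining facial libraries were all at the floor, so the lowest neural library gives a difference of at least 3.65-fold as deposited and at least 2.38-fold relative to the median gene, taking for the latter the facial library with the largest shift. The fitted log2 difference was 3.88 (SE 0.86, limma adjusted p = 0.0138), a value that depends on where the floor lies. Its SE rests on a spread pooled over classes, some of them tied or nearly tied at the floor. The SD of log2 Zic1 was 2.03 in the E10.5 neural libraries, against a pooled SD of 1.04. The SE may therefore be too small for this contrast. In this fit 9.01% of 12681 genes were called higher and 1.35% lower, so that 87.0% of the called genes were higher. With each library centred on its median gene the share was 46.5%, and the log2 difference of Zic1 was 3.43 (adjusted p = 0.0339). Vax1 had a log2 difference of 1.39 (SE 0.71, adjusted p = 0.225) and was not called. With the library labelled dorsal control also left out it was 0.27 (SE 0.22, adjusted p = 0.531), or -0.12 relative to the median gene. When only the library labelled dorsal control was left out, it was -0.20 in the fit of the other 15 libraries. Zic4 was then above the floor in 2 libraries and was not tested under the filter, and with no filter it had a log2 difference of 1.97 (SE 0.84, adjusted p = 0.198).

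With that library in the fit, 0 of 12 pan-neural progenitor and 0 of 18 mesenchyme markers were called in this comparison. These lists are the ones by which the library stood apart, so their counts without it are a description of the remaining libraries and support nothing. Of 11 progenitor markers then tested, 9 were called higher in neural tissue and 0 lower, with fitted differences of 15.8-fold for Sox2, 14.3-fold for Nes and 7.23-fold for Cdh2, a neural cadherin. Their median log2 difference was 2.85, against 0.262 over all genes tested. Of 18 mesenchyme markers, 6 were called lower and 0 higher, with Prrx1 lower by 36.3-fold and Twist1, a regulator of cranial mesenchyme, lower by 22.4-fold. Blood markers moved too, with 6 of 9 erythroid genes called lower, and their summed level was 74.9 to 114 in the neural libraries against 431 to 1540 in the 3 facial ones. The part of tissue composition in the Zic1 difference was not tested.

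At E8.5 the genes were set against the mesoderm, a class of 1 library whose spread is taken to be that of the other classes. The model called 0.0545% of genes higher and 0.801% lower in neural tissue, and none of the 3 genes. Zic1 had a mean level of 1.23 ± 0.397 in neural libraries (SD over 3 regions) and 9.26 in the mesoderm, with a log2 difference of -2.96 (SE 2.21, limma adjusted p = 1.0). Without the library labelled medial nasal prominence the SE was 1.21, the adjusted p was 0.374 and Zic1 was not called, against 0.205% of genes called higher and 1.28% lower. Vax1 had a log2 difference of 0.15 (SE 1.11, adjusted p = 1.0), and the same difference and adjusted p without that library, and Zic4 was at the floor in all 4 libraries. The mesoderm held 8 of 12 pan-neural markers above the floor with a summed level of 38.0, against 53.6 to 78.8 in the E8.5 neural libraries, and 15 of 18 mesenchyme markers with a sum of 136. Whether neural tissue in that dissection contributed to its Zic1 was not tested. Zic1 was 5.49-fold lower in the caudal brain neural epithelium than in the mesoderm.

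Over all stages, none of the 3 genes was called between the neural and the mesenchyme classes. The log2 difference was 0.62 (SE 1.12, limma adjusted p = 0.819) for Zic1, 0.81 (SE 0.62, adjusted p = 0.540) for Zic4 and 0.61 (SE 0.56, adjusted p = 0.620) for Vax1, while 0.848% of genes were called higher and 2.49% lower. Without the library labelled medial nasal prominence it was 0.98 (SE 0.62, adjusted p = 0.366) for Zic1 and 0.77 (SE 0.52, adjusted p = 0.394) for Vax1, neither called, and with no filter 0.98 (SE 0.61, adjusted p = 0.429) for Zic4, against 2.63% of genes called higher and 3.30% lower. For Zic1 the difference at E10.5 minus that at E8.5 was 5.76 on the log2 scale (SE 2.65, adjusted p = 0.935), where 0.0389% of genes were called in the positive and 0.0156% in the negative direction. Without the library labelled medial nasal prominence it was 6.84 (SE 1.48, adjusted p = 0.0536), and 6.18 with libraries centred on the median gene (adjusted p = 0.226). Zic1 was not called in either of these fits, against, in the one without centring, 1.15% of genes called in the positive and 0.0315% in the negative direction. Without that library Zic1 was called with no filter on genes (6.84, adjusted p = 0.0421) and with the library labelled dorsal control also left out (5.81, adjusted p = 0.0340), so the call of a difference between stages depended on the setting. The difference between stages was 0.77 (SE 1.33, adjusted p = 0.946) for Vax1, and 1.24 (SE 1.23, adjusted p = 0.611) without that library. For Zic4 it was 1.44 (SE 1.46, adjusted p = 0.935), and 1.97 (SE 1.46, adjusted p = 0.582) without that library and with no filter. Since Zic4 was at the floor in every E8.5 library, these values repeat its E10.5 differences and cannot show a change between stages.

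Within neural tissue, every E10.5 library had more Zic1 than every E8.5 library. Levels of Zic1 were 3.65, 14.3 and 61.3 at E10.5 and 1, 1 and 1.69 at E8.5. The log2 difference was 3.63 (SE 1.56, limma adjusted p = 0.160), and Zic1 was not called, while 1.31% of genes were called higher and 7.59% lower at E10.5. Without the library labelled medial nasal prominence, which enters this contrast only through the shared estimate of spread, the SE was 0.86, the adjusted p was 0.0141 and Zic1 was called higher, against 2.96% of genes called higher and 13.3% lower. That estimate is pooled with classes tied or nearly tied at the floor. The SD of log2 Zic1 was 2.03 in the E10.5 and 0.44 in the E8.5 neural libraries, so the SE may be too small. Relative to the median gene the difference was 3.98. Markers of blood and of neural maturation moved in the same fit. The embryonic globins Hba-x and Hbb-y were called higher at E10.5 by 45.9-fold and 18.6-fold, with the erythroid sum at 74.9 to 114 in E10.5 and 10.2 to 14.5 in E8.5 neural libraries. The progenitor genes Nes, Fabp7 and Notch1 (3 of 11 tested) and the neuron genes Dcx, Elavl3 and Elavl4 (3 of 8) were also called higher, with neuron sums of 29.0 to 52.2 at E10.5 and 20.1 to 28.1 at E8.5. Their part in the Zic1 difference was not tested. Zic4 had a log2 difference of 1.97 between the stages (SE 0.86, adjusted p = 0.168), with an adjusted p of 0.164 without the library labelled medial nasal prominence and with no filter. Vax1 had 1.24 (SE 0.79, adjusted p = 0.341), with an SE of 0.71 and an adjusted p of 0.238 without that library, and for both genes the stages overlapped at the floor.

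**Figure D3:**
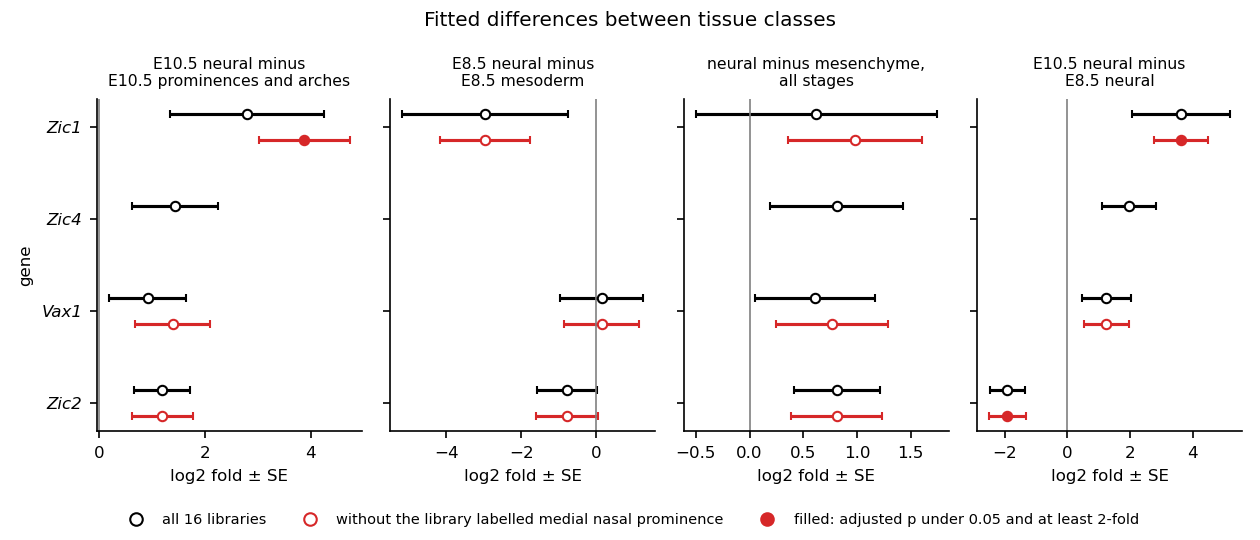
Fitted log2 difference with its SE (horizontal axes) for 4 Zic and Vax genes in 4 comparisons, with all 16 libraries (black) and without the library labelled medial nasal prominence (red), filled where a gene was called. Zic1 is filled in red at 3.88 against E10.5 facial tissue and at 3.63 against E8.5 neural tissue. Zic2 is filled in red at -1.92 against E8.5 neural tissue, and no gene is filled in black.

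Other family members had other orders. Zic2, whose human counterpart is a holoprosencephaly gene, had 4.42 at E10.5 in the library labelled dorsal control, 2.75 in the library labelled central and the floor in the lateral prominence, and it was at the floor in all 4 facial libraries. At E8.5 it had 13.9 in the non-floor plate, 8.97 in the caudal brain and 5.27 in the floor plate, with 14.8 in the mesoderm. All 3 neural levels at E10.5 were below those at E8.5. The log2 difference of E10.5 from E8.5 neural tissue was -1.92 (SE 0.56, limma adjusted p = 0.0514), just outside the threshold. Zic2 was called lower when the E8.5 mesoderm (adjusted p = 0.0352), the floor plate (0.0383), the library labelled medial nasal prominence (0.0385) or the library labelled dorsal control (0.0298) was left out. The share of all genes called lower was 7.59% with all libraries and 13.3% without the library labelled medial nasal prominence. With libraries centred on the median gene the difference was -1.55 and was not called, with all libraries (adjusted p = 0.135) or without the one labelled medial nasal prominence (adjusted p = 0.106). Zic1 and Zic2 thus had differences of opposite sign between the same 6 neural libraries, and the difference between the genes was not tested.

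Zic5, which neighbours Zic2 as Zic4 neighbours Zic1, was above the floor in 5 libraries at 1.67 to 3.96. Vax2, the relative of Vax1 active in the ventral retina, did not exceed 1.44 in any library.

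Among the other Zic genes shown, Zic1 was most like Zic4 across libraries. The Pearson correlation of log2 levels over the 16 libraries was 0.87 with Zic4, 0.55 with Zic5 and 0.25 with Zic2, and Zic2 and Zic5 had 0.81. These are descriptions: the values share libraries and scale, and Zic1 and Zic4 were above the floor together in 3 libraries. Vax1 had 0.88 with Zic4 and 0.71 with Zic1, but Spearman coefficients of 0.49 and 0.33.

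**Figure D4:**
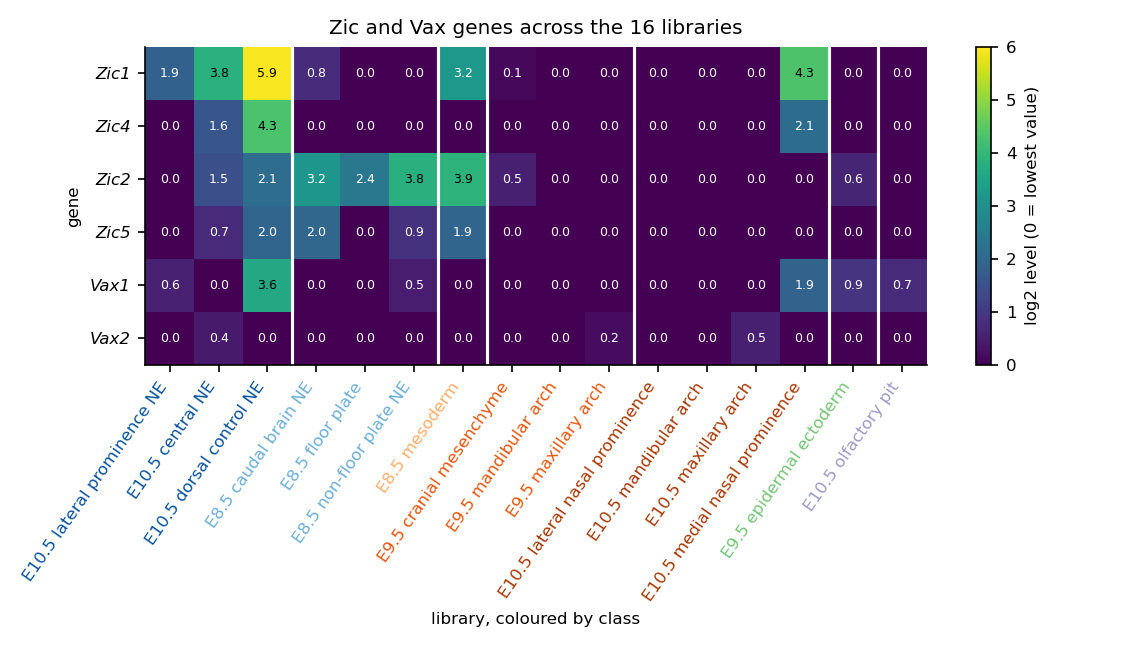
Log2 level of 6 Zic and Vax genes (rows) in the 16 libraries (columns, coloured by class and separated by white lines), where 0 is the lowest value of a gene. Zic1, Zic4 and Vax1 are brightest in the library labelled dorsal control, while Zic2 is brightest in the E8.5 mesoderm (14.8 as a level) and the non-floor plate (13.9).

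Among 5051 other genes with a level of at least 5 somewhere and 3 or more libraries above the floor, the 5 most like each member by this correlation were taken. For Zic1 they were Pld1, a phospholipase D (0.91), Hid1 (0.90), Zic4 (0.87), Rgs8, a regulator of G protein signalling (0.87) and Nes (0.87). For Zic4 they were C130060K24Rik (0.99), Rgs8 (0.99), Sema4a, a semaphorin (0.93), 4930442E04Rik (0.93) and AC157650.1 (0.92). For Vax1 they were 4930442E04Rik (0.96), Sema4a (0.94), Rgs16 (0.93), C130060K24Rik (0.92) and Mid1ip1 (0.91). These too are descriptions. Zic4, C130060K24Rik, Sema4a and 4930442E04Rik were each above the floor in 3 libraries. Coefficients with them rest on those few libraries and on many tied at the floor. The sets of Zic4 and Vax1 have C130060K24Rik, Sema4a and 4930442E04Rik in common, those of Zic1 and Zic4 have Rgs8, and those of Zic1 and Vax1 have no gene in common. Rgs8 had levels of 15.5, 2.52 and 6.27 in the libraries labelled dorsal control, central and medial nasal prominence, 1.11 in the floor plate and the floor elsewhere. Sema4a had 6.24 in the library labelled dorsal control, 2.67 in the library labelled medial nasal prominence and 1.23 in the floor plate, and was at the floor in the library labelled central, as Vax1 was.

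The gene most like Vax1 by this correlation was its neighbour. 4930442E04Rik, the noncoding RNA whose window is printed above beside that of Vax1, had a level of 9.47 in the library labelled dorsal control, 4.53 in the library labelled medial nasal prominence and 1.31 in the epidermal ectoderm, and was at the floor in the other 13 libraries. Those are the 3 libraries with the highest Vax1, in the same order. The gap between the annotated genes is 1383 bases, so they do not overlap. The remaining RefSeq neighbours of the 3 genes were not among the measured genes.

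**Figure D5:**
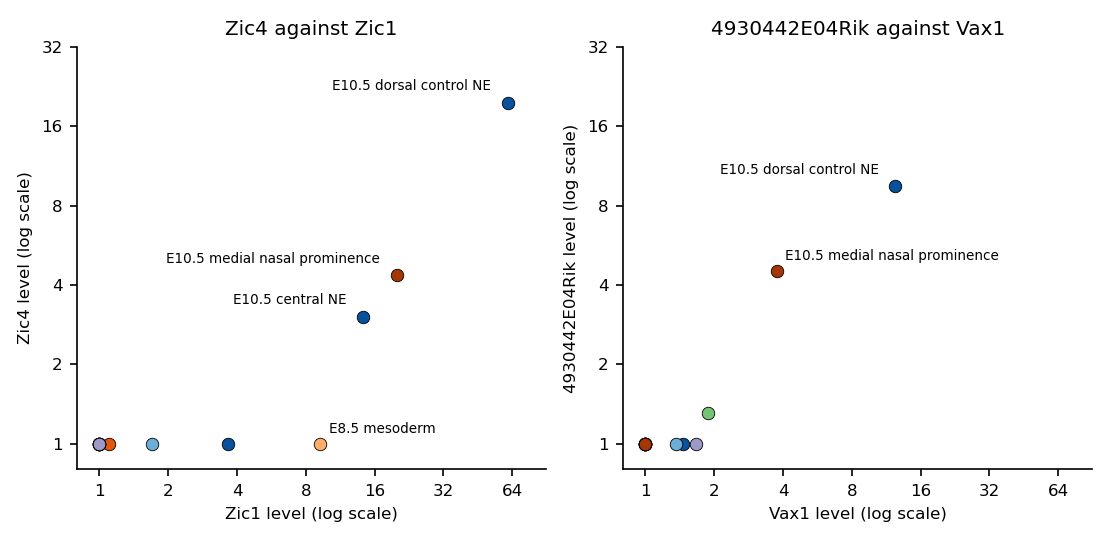
Level of Zic4 against Zic1 (left) and of 4930442E04Rik against Vax1 (right), both axes on log scales, 1 point per library, coloured by tissue class as in the plot of levels by library. The libraries labelled dorsal control and medial nasal prominence stand out in both panels, at 61.3 and 20.0 for Zic1 and at 12.4 and 3.75 for Vax1, and the E8.5 mesoderm lies on the Zic4 floor.

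The pathways around these genes were measured in the same libraries. Of the hedgehog and Gli list, 0 of 13 tested genes were called in the comparison of neural with mesenchyme tissue over all stages, with or without the library labelled medial nasal prominence, where 0.848% of all genes were called higher and 2.49% lower with it and 2.63% and 3.30% without it. At E10.5, 0 of 13 were called with all libraries, and without that library 1 was called lower, the hedgehog co-receptor Gas1 by 4.03-fold, beside 1.35% of all genes. Ptch1, the hedgehog receptor and target, had 27.4 in the library labelled dorsal control, 31.4 in the library labelled medial nasal prominence and 31.4 in the floor plate, against 11.9 in the library labelled central and 5.85 in the lateral prominence. Gli1, another target, had another order, at the floor in the library labelled dorsal control and the lateral prominence, with 1.93 in that labelled medial nasal prominence, 3.29 in that labelled central and 7.27 in the floor plate. Gli2, a hedgehog effector, had 4.70 in the library labelled dorsal control and was at the floor in that labelled medial nasal prominence, while the library labelled central had 10.8 and the lateral prominence 13.4.

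Zic genes are best known from the dorsal neural tube, and other genes of that region were followed beside them. Of 12 tested, 0 were called higher and 1 lower, Msx1 by 5.49-fold, in neural against mesenchyme tissue over all stages, where 0.848% of all genes were called higher and 2.49% lower. It was again Msx1, lower by 6.64-fold, without the library labelled medial nasal prominence, beside 3.30% of all genes. Wnt1 was highest in the E8.5 caudal brain, at 16, against 4.53 in the library labelled dorsal control, and Rspo1 had 60.2 in the library labelled central, 21.4 in the library labelled dorsal control and 26.5 in the E8.5 mesoderm. Of 15 genes of the rostral and ventral forebrain tested, 1 was called higher over all stages, Otx1 by 6.64-fold, beside the same 0.848%. With the library labelled medial nasal prominence left out, 2 of the 15 were called higher, Otx1 by 6.59-fold and Otx2 by 14.3-fold, and Tbx2 lower by 3.65-fold, beside 2.63% and 3.30% of all genes. The comparison at E10.5 called none of them with all libraries and, without that one, 3 of the 15 higher, Otx2 by 36.7-fold, Lhx2 by 31.7-fold and Ntn1 by 2.27-fold, and Tbx2 lower by 9.49-fold, beside 9.01% of all genes called higher and 1.35% lower. Nkx2-1 had 101.2 in the library labelled dorsal control and 49.9 in that labelled medial nasal prominence. Its level was 3.91 in the library labelled central and 1.98 in the lateral prominence. Zic1 and Zic4 had these libraries in the same order, with Zic4 at the floor in the lateral prominence. Vax1 shared the order of the highest libraries only. Its level of 1.46 in the lateral prominence lay above the library labelled central, which was at the floor. Outside these E10.5 libraries the order was not shared. Nkx2-1 had 11.7 in the E8.5 floor plate, where Zic1, Zic4 and Vax1 were at the floor, and 1.47 in the E8.5 mesoderm, where Zic1 had 9.26.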

How the data were processed

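Total RNA of 16 dissected regions of CD1 embryos was read as 50-base single-end reads, per the labels' protocols, at more than 40000000 reads per library; no totals per library came with them. The submitters' processing notes name Bowtie, TopHat, TopHat2, Cufflinks and build mm9, with no versions, roles or annotation. The deposited values are a ratio: each gene's median over the 16 libraries is 1 (largest distance 1.5e-07), and in 8794 of 15876 genes at least 2 libraries share the lowest value, within a relative tolerance of 1e-06, which is treated here as a floor. The unit before the authors' division is not stated. A fold between floored values cannot be seen, and a fold against the floor is a lower bound.

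Log2 ratios were fitted with limma 3.58.1 in R 4.3.3 (variance trend, 1 fit of 7 class means over 16 libraries, genes above the lowest value in at least 3 libraries), with Benjamini-Hochberg adjustment over all genes tested and calls at an adjusted p under 0.05 and at least 2-fold. Nothing in the labels gives replicates, so p-values set a difference against the pooled spread between regions of a class. The fit was tested on simulated data with normal spread and no floor. It called 69 of 100 genes changed by 2 and 93 of 100 changed by 4 on the log2 scale. That does not show how it performs on values tied at a floor. Alternatives were no filter, log2(level + 1), centring on the median gene, only the classes compared, no variance trend and leaving out each library; 3 that combine settings with the omission of the library labelled medial nasal prominence were chosen after seeing the data. Genes named are the 3 members, other Zic and Vax genes, the 5 genes likest to each member, RefSeq neighbours, and up to 4 called genes per direction in each of 10 lists of 137 genes, of which 128 were measured. Some genes are not reported here. Levels of Gli1, Gli2, Foxa2, Nkx2-2, Ptch1, Wnt1, Rspo1, Nkx2-1, Shh, Six3, Emx2, Wnt8b, Pax6 and Nes in single libraries, and the genes named in the E10.5 comparison, were chosen after their values were seen. The members and lists were chosen with earlier results of these data known. Sequences are from RefSeq on GRCm38.p6.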

Additional observations from a re-analysis of the deposited data

Results flagged for a closer look

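In the group of 4 facial libraries of E10.5, 1 library lay apart from the other 3 for 4 of the 6 Zic and Vax genes examined, by the gap between the extreme library and its nearest neighbour relative to the range of the group. Chance marks about 1 in 20 groups whose values vary freely. For each of these 4 genes the other 3 libraries were tied at the floor, where any single library above it is marked, so that rate does not apply. The library labelled medial nasal prominence was the high one for Zic1 at a level of 20.0, Zic4 at 4.36 and Vax1 at 3.75, each with the other 3 libraries at the floor. Its neural markers were high and its mesenchyme markers mostly at the floor, as given above, while its endothelial sum of 18.4 was nearer the 21.4 to 22.5 of the other facial libraries than the E10.5 neural ones, which did not exceed 13.9. For Vax2 the E10.5 maxillary arch had 1.44 and the other 3 libraries were at the floor.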

How the results depend on the processing

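No paired analysis was possible because the labels give no replicate numbers and each region and stage has 1 library. The call of Zic1 in E10.5 neural against facial tissue rested on 1 library. Its log2 difference ranged over 1.77 to 3.88 when single libraries were left out, and it was called only without the library labelled medial nasal prominence. Without that library it was 3.43 with libraries centred on the median gene, 3.88 with no filter (adjusted p = 0.0219) and 2.85 with the library labelled dorsal control also left out (adjusted p = 0.0106). Under the same 3 settings Zic1 was called in E10.5 against E8.5 neural tissue at 4.0, 3.63 and 2.60 (limma adjusted p = 0.00857, 0.0235 and 0.00897), within 2.60 to 4.64 over single omissions. For the difference between stages it was called with no filter, at 6.84, and with both libraries left out, at 5.81 (adjusted p = 0.0421 and 0.0340), and single omissions gave 4.73 to 6.84.

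Vax1 changed direction when only the library labelled dorsal control was left out, within ranges of -0.20 to 1.61 at E10.5 and -0.35 to 1.46 for the difference between stages. No other result of Zic1, Zic4, Vax1 or Zic2 changed direction under the alternatives run. The cause was not tested.

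Counts of called genes moved most. At E10.5, 0 genes were called, against 6 with no filter, 4 on log2(level + 1) and 14 centred. Single omissions gave 0 to 1314, with 1314 without the library labelled medial nasal prominence, 1 without the lateral prominence neural epithelium and 3 without either the library labelled central or that labelled dorsal control. The settings added without the library labelled medial nasal prominence gave 793 centred, 1109 with no filter and 973 with the library labelled dorsal control also left out. Against the E8.5 mesoderm, 110 calls became 194 with no filter, 13 centred, 5 with only the classes compared, and, in the added settings, 288 with no filter and without the library labelled medial nasal prominence and 197 with that labelled dorsal control also left out; single omissions gave 59 (non-floor plate) to 188 (medial nasal prominence), with 64, 66 and 72 without the lateral prominence, the library labelled central and the E10.5 mandibular arch. Neural against mesenchyme gave 429 calls, 275 on log2(level + 1), 802, 657 and 769 in the added settings, and 283 (library labelled central) to 752 (medial nasal prominence) over single omissions. E10.5 against E8.5 neural tissue gave 1144 calls, 2077 with only the classes compared, 1809 and 2095 in the added settings, and 422 (library labelled central) to 2056 (medial nasal prominence) over single omissions, with 490, 583, 594 and 745 without the caudal brain, lateral prominence, non-floor plate and the library labelled dorsal control. The difference between stages gave 7 calls, 99 with no filter, 56 on log2(level + 1), 30 with no variance trend, 0 centred or with only the classes compared, 0, 403 and 65 in the added settings, and 1 to 150 over single omissions, with 150 without the library labelled medial nasal prominence. Without the E8.5 mesoderm no fit of the contrasts that use it could be had. Unknown depth, 1 library per region and the floor limit every value.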
